A study of Mus musculus with 25 samples.

Results

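Red blood cells and their precursors carry a small set of microRNAs (miRNAs) at high level, and 5 entries for this set were followed here in vesicles from mouse liver: mmu-miR-451a, mmu-miR-144-3p, mmu-miR-144-5p, mmu-miR-486a-5p and mmu-miR-486b-5p. They were chosen by name, as marks of blood formation and of red cell carry-over, with earlier results of these data known. They are 5 of the 1493 entries in the count table. The miR-486a-5p and miR-486b-5p entries held the same count in each of the 25 libraries, so the 5 entries are 4 distinct count profiles and the miR-486 pair is given below under miR-486a-5p. All 5 passed the filter on low counts, which kept 391 entries.

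miR-144 and miR-451 are cut from one transcript, which is switched on by the transcription factor GATA1 as red cell precursors mature. miR-451 is an unusual miRNA: its hairpin is too short for Dicer and is cut by the Argonaute protein Ago2 instead, and it is known to protect red cell precursors from oxidative stress by keeping the adaptor protein 14-3-3zeta low. miR-144 is known to target the antioxidant regulator Nrf2. miR-486 comes from the gene of erythrocyte ankyrin, Ank1, and is also made in skeletal muscle. The liver is the main site of red cell formation in the fetus and hands this task over to bone marrow and spleen around and after birth.

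All mice were wild-type C57BL/6J, the labels describe the sexes as balanced, which groups of 5 cannot be exactly, without giving the sex of any one animal, and no treatment or other genotype was part of the study. Small extracellular vesicles (sEVs) were isolated from frozen liver with a tissue dissociation kit and ultracentrifugation, and their small RNA was sequenced with the QIAseq chemistry. The sampled ages, with 5 mice each, were 1 week, 6 weeks, 6 months, 12 months and 14 months; the 4 later ages are called adult below. The batch label repeats the age, so handling of an age group and age cannot be told apart. Vesicles of a whole organ come from every cell type in it, including blood held in the tissue, and fewer cells of a type cannot be told apart from less RNA per cell.

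Of the 5 members, 3 had a mature sequence in RefSeq (GRCm38.p6), shown here because the locus yields miRNAs of unrelated target specificity; the seed, bases 2 to 8, is in capitals.
miR-451a: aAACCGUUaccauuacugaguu
miR-144-3p: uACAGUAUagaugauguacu
miR-144-5p: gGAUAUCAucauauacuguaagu
No other mature mouse miRNA of the table from RefSeq shares bases 2 to 8 with any of them. The miRNA below, printed for comparison, shares bases 2 to 7 with miR-144-3p.
miR-101a-3p: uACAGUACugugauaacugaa
miR-101a-3p is abundant in liver, and its entry is separate in the count table.

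On chromosome 11 the Mir144 hairpin occupies chr11:78073005-78073070 on the plus strand and the Mir451a hairpin chr11:78073170-78073241 on the same strand, with 99 bases between them (GRCm38, GENCODE M21). Neither lies in a coding gene. The nearest one, Eral1, is 306 bases from Mir144 and 135 bases from Mir451a. The only annotated gene overlapping either hairpin is Mir451b, on the minus strand at the coordinates of Mir451a, and miR-451b was not analysed here. The hairpins are printed because they show where each counted product sits; mature parts are in capitals.
Mir144: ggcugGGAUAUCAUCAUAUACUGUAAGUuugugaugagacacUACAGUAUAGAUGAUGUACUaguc
Mir451a: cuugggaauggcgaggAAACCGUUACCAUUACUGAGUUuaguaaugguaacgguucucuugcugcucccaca
Mir144 is 66 bases long and gives a product from each arm, miR-144-5p from bases 6 to 28 and miR-144-3p from bases 43 to 62. Mir451a is 72 bases long and its mature product runs from base 17 to base 38. Mir486, the precursor of miR-486a, lies at chr8:23142555-23142682 on the plus strand inside Ank1 (chr8:22974844-23150497, plus strand) and overlaps no Ank1 exon, so it is intronic. Mir3107, listed in RefSeq with the synonym mir-486b, lies within it on the minus strand at chr8:23142573-23142662. Both miR-486 precursors are thus annotated on opposite strands of one stretch of DNA.

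The libraries held 641579 to 6888928 counts, with 2095925 to 6888928 at 1 week and 641579 to 3989776 in adults. The hepatocyte miRNA miR-122-5p took 61.9% ± 4.29 (SD, n = 5) of the counts at 1 week and 57.4% ± 2.25 (SD, n = 20) in adults, so the liver label held in both. Levels are given as counts per 1000000 counts (CPM) after TMM scaling, a scaling by the bulk of the miRNAs, whose factors ran higher at 1 week (1.30 to 1.79) than in adults (0.719 to 1.08). A floor of 3 counts stood at 0.283 CPM in the deepest library and 4.90 CPM in the shallowest. A level here is a scaled share of counts and not a molar amount, since ligation differs between sequences.

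miR-451a was the most abundant member in the mean over all 25 libraries at 220 CPM ± 96.2 (SD, n = 25), against 96.3 CPM for miR-144-3p, 38.3 CPM for miR-486a-5p and 13.5 CPM for miR-144-5p. Among named mouse miRNAs it ranked 77th at 1 week and 84th in adults. miR-144-3p ranked 87th at 1 week and 124th in adults, miR-144-5p 183rd and 216th, and miR-486a-5p 162nd in adults. The 4 profiles together took 0.101% ± 0.0338 (SD, n = 5) of the counts at 1 week and 0.0273% ± 0.0117 (SD, n = 20) in adults. The exact two-sided permutation test of this share gave p = 5.65e-05, or 0.00119 after Benjamini-Hochberg (BH) adjustment over the 42 tests of shares and ratios.

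miR-486a-5p was the one member whose 1-week and adult libraries did not overlap. In the 1-week libraries of mice 1, 3, 4, 5 and 27 it stood at 66.2, 89.9, 162, 101 and 108 CPM. At 6 weeks (mice 6 to 10) it stood at 15.4, 13.1, 19.4, 29.2 and 28.6 CPM, and at 6 months (mice 11 to 15) at 31.4, 28.9, 37.7, 16.2 and 13.4 CPM. At 12 months (mice 16 to 20) it stood at 24.7, 19.1, 20.0, 19.6 and 18.3 CPM, and at 14 months (mice 21 to 25) at 15.7, 25.5, 12.4, 24.2 and 16.2 CPM. Each 1-week library lay above each of the 20 adult libraries. The lowest 1-week value, 66.2 CPM, was above the highest adult value, 37.7 CPM. Of all 391 tested entries, 25.3% had each 1-week library above each adult library, so such a gap was not rare. By age its mean was 106 CPM ± 35.3 at 1 week, then 25.5 at 6 months, 21.1 at 6 weeks, 20.3 at 12 months and 18.8 at 14 months, with adult SDs of 2.54 to 10.4 (n = 5 an age). These levels rest on 292 to 1149 counts at 1 week and 8 to 56 counts in adults.

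miR-144-3p stood at 199, 306, 250, 318 and 74.9 CPM in the 1-week libraries of mice 1, 3, 4, 5 and 27. It stood at 34.9, 44.1, 76.5, 72.6 and 74.4 CPM at 6 weeks and at 58.0, 69.9, 64.9, 36.5 and 63.4 CPM at 6 months. At 12 months it stood at 47.0, 71.8, 96.1, 34.9 and 95.5 CPM, and at 14 months at 62.0, 31.3, 56.2, 67.4 and 102 CPM. Of the 5 libraries of 1 week, 4 lay above all adult libraries, and mouse 27 lay inside the adult range of 31.3 to 102 CPM. Its mean was 230 CPM ± 98.5 at 1 week, then 69.1 at 12 months, 63.7 at 14 months, 60.5 at 6 weeks and 58.5 at 6 months, with adult SDs of 13.1 to 27.8 (n = 5 an age). At 6 months, but not at the other adult ages, its libraries all lay below those of 1 week; between these ages 29.4% of the tested entries had each 1-week library above each 6-month library.

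miR-144-5p, the lesser product of the same hairpin, stood at 41.5, 37.2, 16.8, 55.0 and 12.4 CPM in the same 1-week mice. It stood at 1.40, 11.4, 11.6, 15.1 and 14.9 CPM at 6 weeks and at 5.89, 11.2, 9.65, 5.73 and 6.72 CPM at 6 months. At 12 months it stood at 4.94, 8.80, 11.1, 8.46 and 12.7 CPM, and at 14 months at 6.72, 2.91, 5.15, 14.7 and 6.42 CPM. Mouse 27 was again the lowest at 1 week and the only one of that age within the adult range of 1.40 to 15.1 CPM. Its mean was 32.6 CPM ± 17.7 at 1 week, and in adults it was highest at 6 weeks (10.9), followed by 12 months (9.21), 6 months (7.84) and 14 months (7.19), with adult SDs of 2.45 to 5.57 (n = 5 an age). Adult libraries held 1 to 39 counts of this arm, so single adult values are loose, and the value of mouse 6 is 1 count.

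miR-451a, the most abundant member, did not separate the ages. It stood at 437, 307, 195, 346 and 112 CPM in the 1-week libraries of mice 1, 3, 4, 5 and 27. At 6 weeks it stood at 113, 178, 310, 368 and 194 CPM, and at 6 months at 172, 251, 408, 205 and 151 CPM. At 12 months it stood at 143, 151, 304, 150 and 176 CPM, and at 14 months at 235, 103, 115, 195 and 179 CPM. The 1-week range of 112 to 437 CPM and the adult range of 103 to 408 CPM overlapped over most of their length. The means fell in the order 1 week (279 CPM), 6 months (237 CPM), 6 weeks (233 CPM), 12 months (185 CPM) and 14 months (165 CPM), with SDs of 55.4 to 128 CPM, and no neighbours in that order differed beyond their spread.

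**Figure D1:**
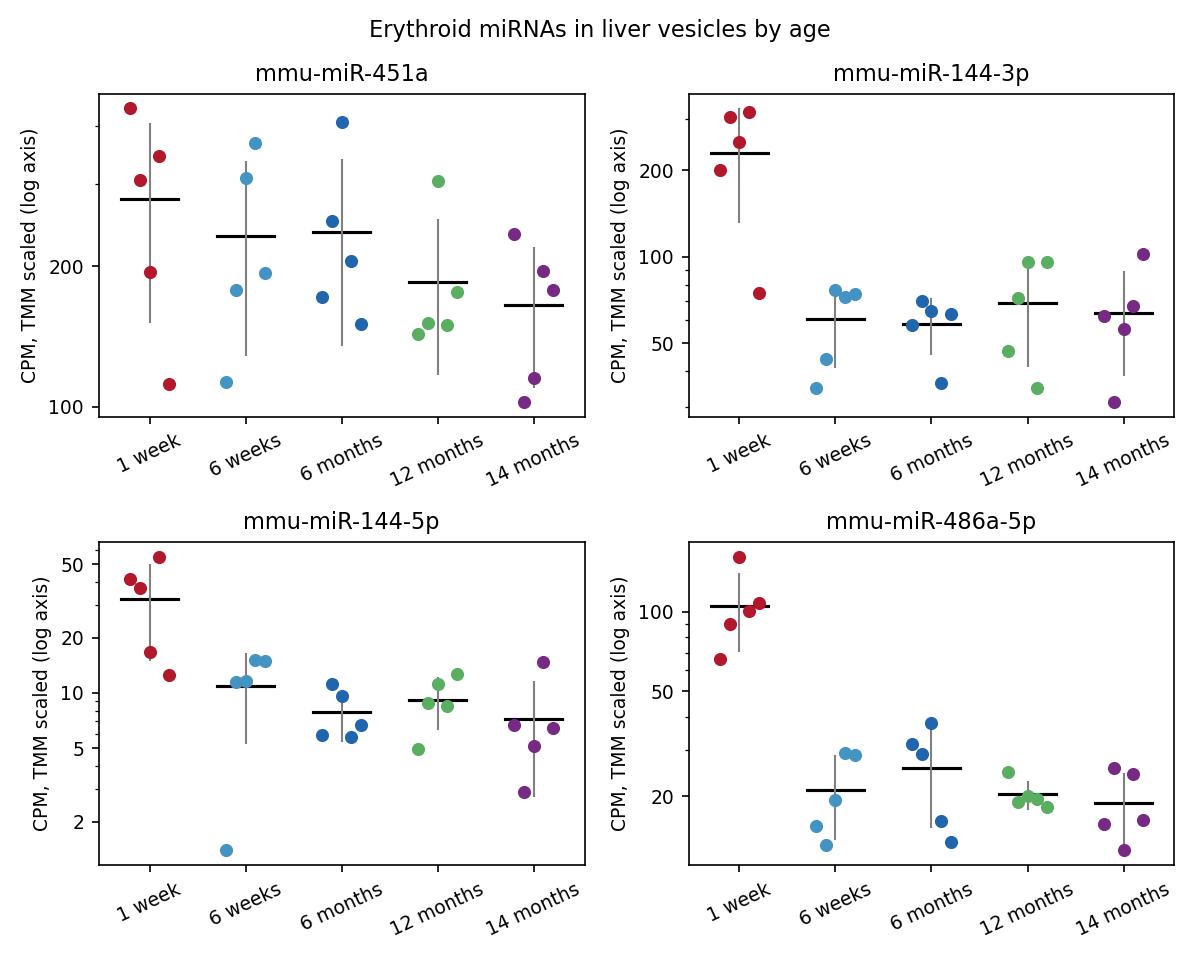
CPM of miR-451a, miR-144-3p, miR-144-5p and miR-486a-5p (log axes) by age; each point is 1 mouse, the black bar the mean and the grey line ± 1 SD (n = 5 an age). The 1-week points of miR-486a-5p (66.2 to 162 CPM) sit above all adult points (12.4 to 37.7 CPM), whereas those of miR-451a (112 to 437 CPM) lie among the adult points.

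The first comparison asked whether the erythroid miRNAs were lower in adult liver vesicles than in those of the first week. Against 1 week, miR-486a-5p was lower in the mean of the 4 adult ages by a log2 fold change of -2.30 ± 0.20 (SE), which is 4.94-fold higher at 1 week (edgeR quasi-likelihood test, BH-adjusted p = 7.52e-11). miR-144-3p was lower by a log2 fold change of -1.86 ± 0.24 (SE), 3.63-fold higher at 1 week (edgeR, adjusted p = 1.25e-07). miR-144-5p was lower to the same size, at -1.88 ± 0.31 (SE) and 3.67-fold (edgeR, adjusted p = 3.96e-06). miR-451a had a log2 fold change of -0.46 ± 0.27 (SE) with a 95% interval of -0.98 to 0.07, and did not pass (edgeR, adjusted p = 0.117). So 4 of the 5 entries, or 3 of the 4 distinct profiles, were called lower, and none higher. Of all 391 tested entries, 40.4% were called lower, 39.4% higher and 79.8% were called in either direction in this comparison, so a call by itself was common; the members' median log2 fold change was -1.88 and that of all tested entries -0.05.

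The call on miR-451a depended on the scaling and on 1 mouse. With DESeq2 size factors in the same edgeR model its log2 fold change was -0.95 (adjusted p = 0.00259), and with library totals alone -1.25 (adjusted p = 0.000268), both called. These scalings moved the median of all tested entries by -0.46 and -0.74, and the share of calls that were lower from 50.6% to 62.3% and 69.6%. Measured from the median of all tested entries, miR-451a stood at -0.41 with TMM, -0.44 with DESeq2 size factors and -0.47 with library totals. On the same footing miR-486a-5p stood at -2.26, -2.26 and -2.29, and miR-144-3p at -1.81, -1.83 and -1.87. Without mouse 27, the deepest library, miR-451a was called as well, at -0.66 (edgeR, adjusted p = 0.0233).

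**Figure D2:**
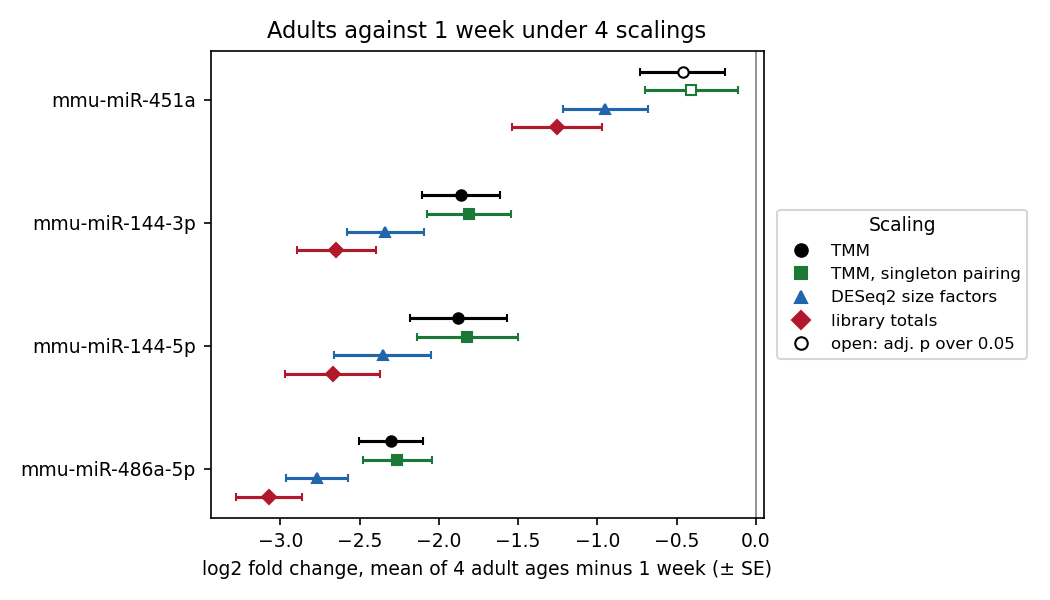
log2 fold change of each distinct member, mean of the 4 adult ages minus 1 week, with its SE, under 4 scalings of the same edgeR fit; open symbols have an adjusted p above 0.05. miR-451a moved from -0.46 (TMM, open) to -1.25 (library totals, filled), and the other members were called under each of the 4 scalings.

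Each adult age was also set against 1 week, and these 4 contrasts share the 1-week libraries. From the youngest to the oldest adult age miR-486a-5p was lower by -2.28, -2.05, -2.38 and -2.49, with SEs of 0.30 to 0.31 (log2 fold changes; edgeR, adjusted p of 3.63e-07, 1.10e-06, 1.18e-07 and 5.17e-08). miR-144-3p was lower by -1.91, -1.97, -1.72 and -1.84 in the same order, with SEs of 0.35 to 0.36 (edgeR, adjusted p of 4.07e-05, 2.53e-05, 0.000107 and 4.80e-05). miR-144-5p was lower by -1.53, -2.05, -1.77 and -2.16, with SEs of 0.44 to 0.46 (edgeR, adjusted p of 0.00372, 0.000293, 0.000882 and 0.000125). The 6-week call of miR-144-5p was lost without mice 6 and 7, the shallowest libraries, at -1.11 (edgeR, adjusted p = 0.0531), an alternative chosen after seeing the data.

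miR-451a stood at -0.26, -0.23, -0.59 and -0.76 at the 4 adult ages in the same order, with SEs of 0.35, and passed at none (edgeR, adjusted p of 0.509, 0.544, 0.132 and 0.0565). These results at single ages depended on the settings too. At 14 months miR-451a was called under 11 of 35 alternatives, among them DESeq2 size factors (-1.28, adjusted p = 0.00318) and the omission of mouse 4, 6, 13, 21 or 27, which gave adjusted p down to 0.0122. At 12 months it was called under 6 of 35, among them the omission of mouse 27 (-0.79, adjusted p = 0.0365), and at 6 weeks and 6 months with library totals alone (-0.91 and -0.98, adjusted p of 0.0408 and 0.0272). At each adult age 4 of the 5 entries were thus called lower. The share of all 391 tested entries called lower was 36.8%, 37.9%, 38.4% and 37.3%, again from the youngest adult age to the oldest; such calls were common at each age. Across the 5 ages at once, the edgeR F test gave adjusted p of 4.24e-09 for miR-486a-5p, 6.21e-06 for miR-144-3p, 0.000124 for miR-144-5p and 0.270 for miR-451a, where 75.4% of all entries passed.

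Among the adult ages no member was called in any of the 6 pairs. The 24 tests of the 4 distinct profiles gave 0 calls with edgeR, 0 unadjusted p-values under 0.05 and 0 calls with DESeq2. The lowest unadjusted edgeR p was 0.151, for miR-451a between 14 months and 6 months. Fold changes in these pairs ran from -0.63 to 0.29 on the log2 scale, and their 95% intervals reached from -1.56 to 1.22, so differences within that span were not resolved with 5 mice an age. Calls were rare in these pairs for all entries: 1.79% for 6 months, 5.63% for 12 months and 3.84% for 14 months against 6 weeks, and 0.0% in each of the 3 pairs among 6, 12 and 14 months.

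Ratios of 2 miRNAs within a library need no scaling factor, so they show whether members changed unequally. The ratio of miR-144-3p to miR-451a, both from one locus, ran from 0.457 to 1.29 at 1 week with a median of 0.919, and from 0.159 to 0.570 in adults with a median of 0.312. The mean log2 ratio was 1.38 lower in adults, at -1.67 against -0.30 (exact two-sided permutation test, p = 0.000113, adjusted p = 0.00119 over 42 tests). Only mouse 1, at 0.457, fell inside the adult range. The ratio was lower at 6 weeks and at 6 months than at 1 week without overlap (exact permutation tests, p = 0.00794 in each, the smallest that 5 against 5 libraries can give, adjusted p = 0.0256). At 12 and 14 months the adjusted p was 0.05 in each and did not fall under the threshold, though it did without mouse 1 and without mouse 6 (exact permutation tests, adjusted p down to 0.0208 at 12 months and 0.0333 at 14 months). Mouse 6, of 6 weeks, is in neither comparison, so its omission acted only through the adjustment over the 42 tests.

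The ratio of miR-486a-5p to miR-451a had a median of 0.293 at 1 week (0.152 to 0.967) and of 0.106 in adults (0.0625 to 0.248). The mean log2 ratio was 1.88 lower in adults, at -3.20 against -1.32 (exact two-sided permutation test, p = 0.000113, adjusted p = 0.00119). At 1 week it was highest in mice 27 and 4 and at most 0.293 in the other 3. The ratio of miR-486a-5p to miR-144-3p, which compares the members of different chromosomes that both were lower in adults, differed by -0.51 on the log2 scale and did not pass (exact permutation test, adjusted p = 0.303). Its values spread from 0.294 to 1.45 at 1 week and from 0.160 to 0.814 in adults.

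The arms of the Mir144 hairpin were not found to differ in their ratio between the ages. miR-144-3p over miR-144-5p had a median of 6.02 at 1 week (4.80 to 14.9) and 7.84 in adults (3.86 to 25.0), and the mean log2 ratio differed by 0.01, at 2.86 ± 0.64 (SD, n = 5) and 2.87 ± 0.59 (SD, n = 20), which did not pass (exact permutation test, adjusted p = 0.992). Leaving out each library in turn moved that difference between -0.14 and 0.27. The spread within an age was thus wider than the difference between ages.

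In plasma, miR-451a over miR-23a-3p is read as a measure of red cell rupture, since miR-23a-3p is low in red cells. Here that ratio ran from 0.345 to 0.793 at 1 week and from 0.0278 to 0.115 in adults, with no overlap. The mean log2 ratio was 3.18 lower in adults (exact permutation test, p = 1.88e-05, the smallest that 5 against 20 libraries can give, adjusted p = 0.000791). Most of this difference lay in the denominator: miR-23a-3p itself was higher in adults by a log2 fold change of 2.69 ± 0.19 (SE; edgeR, adjusted p = 1.20e-12), at 549 CPM ± 241 (SD, n = 5) against 3561 CPM ± 554 (SD, n = 20). The numerator, miR-451a, stood at -0.46 and was not called with TMM scaling (edgeR, adjusted p = 0.117). miR-451a over miR-16-5p, another miRNA abundant in red cells, ran from 0.00376 to 0.0734 at 1 week and from 0.00814 to 0.0376 in adults and did not pass (exact permutation test, log2 difference -0.44, adjusted p = 0.513). Without mouse 27 that difference was -1.04 (exact permutation test, adjusted p = 0.0428).

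Between 14 months and 6 weeks, the ends of the adult range, none of the 6 ratios passed. The exact permutation p-values were 0.119 to 0.635 before adjustment. The share of counts was 0.0207% ± 0.00521 (SD, n = 5) at 14 months and 0.0325% ± 0.0141 (SD, n = 5) at 6 weeks (exact permutation test, p = 0.127, adjusted p = 0.242). Without mouse 6 of 6 weeks, one of the 2 shallowest libraries, the difference was -0.0160 percentage points and was called (exact permutation test, adjusted p = 0.0370).

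**Figure D3:**
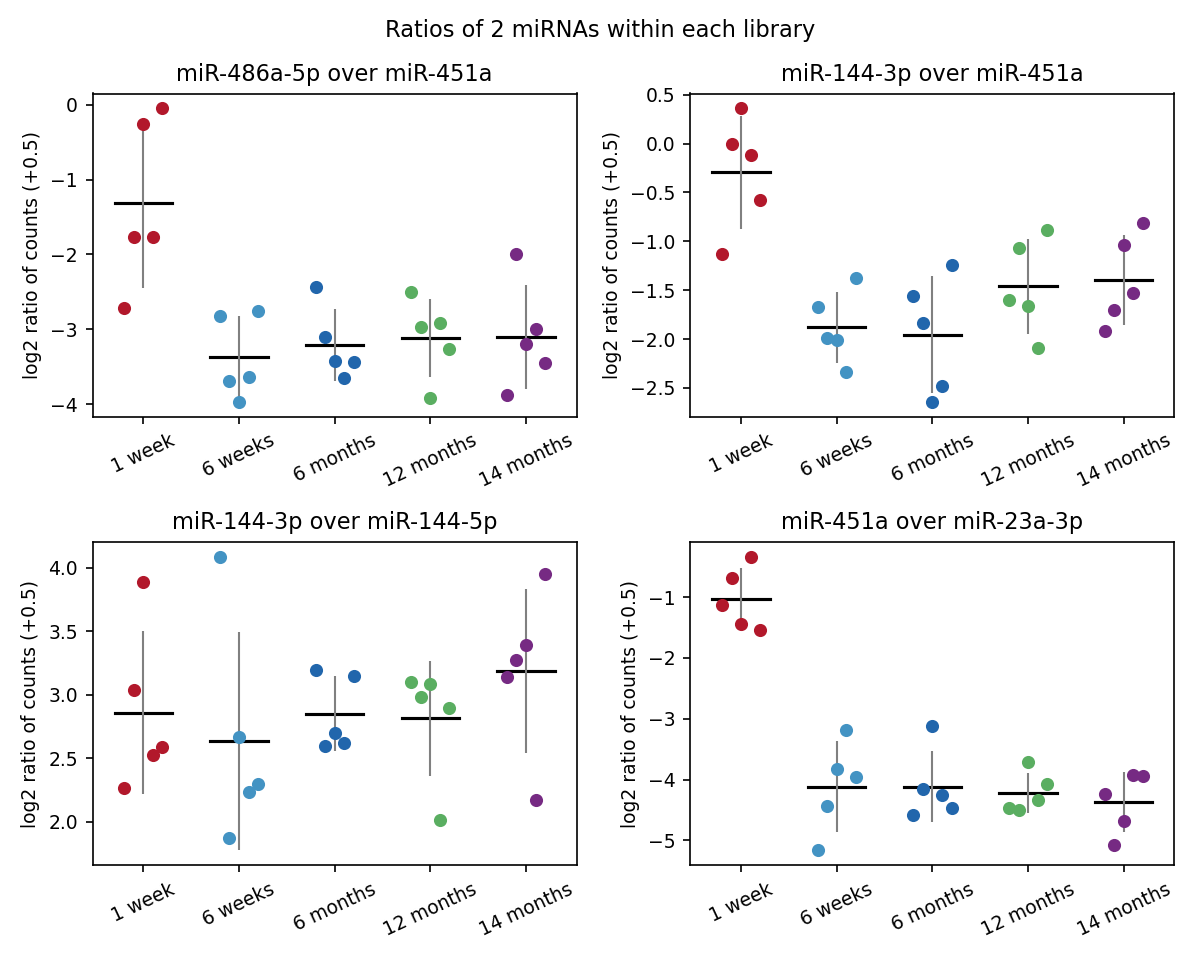
log2 ratio of counts of 2 miRNAs within each library (0.5 added to each count) by age; each point is 1 mouse, the bar the mean and the grey line ± 1 SD (n = 5 an age). The 1-week points lie above all adult points for miR-451a over miR-23a-3p, mostly above for miR-144-3p and miR-486a-5p over miR-451a, and among them for miR-144-3p over miR-144-5p (medians of 6.02 and 7.84).

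Within the first week the members did not order the mice alike. From highest to lowest, miR-451a ordered them 1, 5, 3, 4 and 27, and miR-486a-5p ordered them 4, 27, 5, 3 and 1, so the mouse highest in miR-451a was the lowest in miR-486a-5p. miR-144-3p and miR-144-5p both had mouse 5 highest and mouse 27 lowest, as miR-451a had mouse 27 lowest. With 5 mice these are values and no relation was tested.

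Some muscle miRNAs were also high at 1 week. miR-206-3p, a skeletal muscle miRNA, stood at 275, 148, 481, 50.4 and 990 CPM in mice 1, 3, 4, 5 and 27 of 1 week and at 0.0 to 6.72 CPM in adults. miR-1a-3p, made in skeletal and heart muscle, stood at 24.3, 31.6, 11.9, 6.38 and 119 CPM at 1 week and at 0.0 to 6.76 CPM in adults. Of the 8 muscle miRNAs listed, 6 were entries of the table and 2 passed the filter on low counts. Both were called lower in adults, as were 40.4% of all tested entries. miR-206-3p stood at -7.54 ± 0.41 (SE, edgeR, adjusted p = 6.87e-15) and miR-1a-3p at -3.34 ± 0.39 (SE, edgeR, adjusted p = 1.67e-08). They held 64 and 130 counts over the 20 adult libraries, against 14293 and 1551 at 1 week. Both thus passed the filter through the 1-week libraries, where they were high, so these calls were no independent test. The summed level of the list ran from 61.4 to 1128 CPM at 1 week and from 1.94 to 13.5 CPM in adults. Of the 4 entries too low to test, miR-133a-3p averaged 15.0 CPM ± 8.47 (SD, n = 5) at 1 week and 1.54 CPM ± 0.941 (SD, n = 20) in adults. miR-499-5p, a heart and slow muscle miRNA, averaged 1.65 CPM ± 0.397 at 1 week and 1.56 CPM ± 1.65 in adults, so its groups overlapped. miR-208b-3p, a heart miRNA named after its values were seen, was at 0 in each adult library and had up to 18 counts at 1 week.

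The mice with the most miR-206-3p at 1 week, 27 and 4, had 108 and 162 CPM of miR-486a-5p, the 2 highest values. Mouse 5, with the least miR-206-3p, had 101 CPM of miR-486a-5p, above the adult maximum of 37.7 CPM. Its miR-206-3p, at 50.4 CPM, was likewise above the adult maximum of 6.72 CPM. Without mice 4 and 27, an alternative chosen after seeing the data, miR-486a-5p was lower in adults by -2.05 ± 0.24 (SE; edgeR, adjusted p = 1.74e-08) and miR-144-3p by -2.17 ± 0.24 (SE; edgeR, adjusted p = 1.28e-08). In that fit miR-451a was called too, at -0.89 ± 0.28 (SE; edgeR, adjusted p = 0.00652). The part of muscle RNA in the level of miR-486a-5p was not tested.

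**Figure D4:**
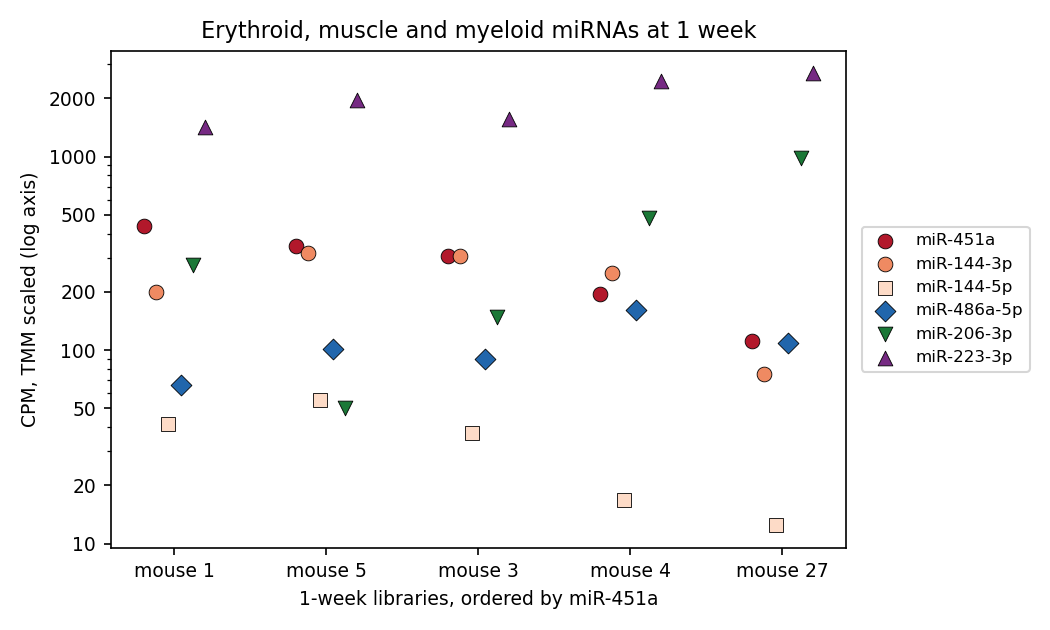
CPM (log axis) of the members, the muscle miRNA miR-206-3p and the myeloid miRNA miR-223-3p in the 5 libraries of 1 week, ordered by miR-451a; each symbol is 1 library. miR-451a falls from 437 CPM in mouse 1 to 112 CPM in mouse 27, while miR-486a-5p is lowest in mouse 1 at 66.2 CPM and highest in mouse 4 at 162 CPM.

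Other miRNAs abundant in red cells did not follow the members as a group. Of 10 listed, 9 were tested, with 4 called higher in adults, 3 lower and 2 not passing. The shares over all tested entries were 39.4% higher and 40.4% lower. The median log2 fold change of the list was 0.02, against -0.05 over all tested entries. miR-16-5p, the most abundant of them, had a log2 fold change of -0.20 ± 0.21 (SE; edgeR, adjusted p = 0.360), with 5954 to 29770 CPM at 1 week and 10830 to 17270 CPM in adults. Its highest library was mouse 27, the lowest in miR-451a. miR-191-5p was higher in adults at 1.41 and miR-15a-5p at 0.87, and miR-25-3p was lower at -0.48 (edgeR, adjusted p of 2.02e-11, 0.00115 and 0.000438). With library totals alone the list stood at 1 higher, 5 lower and 3 not passing, and without mice 4 and 27 at 4 higher, 1 lower and 4 not passing.

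miRNAs known as regulators of erythroid maturation moved both ways. All 10 listed were tested, with 6 called higher in adults and 4 lower, and a median log2 fold change of 0.74. Of all tested entries 39.4% were called higher and 40.4% lower, so calls in both directions were common. miR-221-3p, which limits the receptor Kit in red cell precursors, was higher by 2.65 ± 0.16 (SE; edgeR, adjusted p = 3.53e-14), at 129 CPM ± 31.0 (SD, n = 5) at 1 week and 822 CPM ± 183 (SD, n = 20) in adults. miR-27a-3p, of the miR-23a cluster that GATA1 induces, was higher by 1.95 ± 0.13 (SE; edgeR, adjusted p = 2.83e-13), and its neighbour miR-23a-3p is given above. miR-223-3p, a myeloid miRNA that falls as red cells mature, was lower by -2.27 ± 0.14 (SE; edgeR, adjusted p = 1.45e-13), at 2022 CPM ± 554 (SD, n = 5) against 421 CPM ± 95.9 (SD, n = 20). These 4 kept their sign under the 4 scalings, and with library totals alone the list stood at 4 higher, 4 lower and 2 not passing. Among the entries called lower with TMM scaling, miR-210-3p held 513 counts at 1 week and 148 over the 20 adult libraries. It passed the filter through the 1-week libraries, where it was high, so its call was no independent test.

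Of the white cell miRNAs, more were called lower than higher in adults. Of 8 leukocyte miRNAs, all tested, 1 was called higher, 5 lower and 2 did not pass, with a median of -0.52. Of all 391 tested entries 39.4% were called higher and 40.4% lower, so such calls were common. miR-223-5p, among the 5 called lower, held 455 counts at 1 week and 50 over the 20 adult libraries. It passed the filter through the 1-week libraries, where it was high, so its call was no independent test. On the list of erythroid regulators are also 3 of the 8 (miR-150-5p, miR-155-5p and miR-223-3p). miR-142a-3p, made across blood cell lineages, was lower by -0.56 ± 0.16 and miR-142a-5p by -0.48 ± 0.17 (SE; edgeR, adjusted p of 0.00279 and 0.0137). miR-146a-5p, an inflammation-linked miRNA, stood at -0.15 ± 0.26 (SE; edgeR, adjusted p = 0.583). The summed level of the list was 8876 to 11520 CPM at 1 week and 4543 to 14710 CPM in adults. Against 1 week, 5 of the 8 were called lower at 6 weeks and at 6 months. At 12 months 2 were lower and 1 higher, and at 14 months 3 were lower and none higher. Of all tested entries 36.8% and 37.9% were called lower at 6 weeks and 6 months, and 38.4% and 37.3% at 12 and 14 months. The calls at 12 and 14 months were thus near or below these shares. With library totals alone 7 of the 8 were called lower, and without mice 6 and 7 the count was 3 lower and 1 higher.

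Most markers of the resident liver cells were called higher in adults with TMM scaling, but the share of counts of each list changed little. The hepatocyte list held 70.1% ± 3.71 (SD, n = 5) of the counts at 1 week and 69.3% ± 1.68 (SD, n = 20) in adults. The endothelial list held 4.48% ± 1.13 (SD, n = 5) and 4.55% ± 0.667 (SD, n = 20). With TMM scaling all 6 hepatocyte miRNAs were called higher in adults (median 1.57), as were 39.4% of all tested entries. Among them were miR-192-5p at 2.51 ± 0.19 and miR-194-5p at 2.52 ± 0.11 (SE, edgeR, adjusted p of 5.56e-12 and 3.32e-16). miR-122-5p and miR-148a-3p were higher at 0.68 and 0.76 with TMM scaling. With library totals alone miR-122-5p was called lower at -0.11 (edgeR, adjusted p = 0.021) and miR-148a-3p stood at -0.04. In that scaling the list stood at 4 higher, 1 lower and 1 not passing. Of the 2 endothelial miRNAs, miR-126a-3p was called higher at 0.88 ± 0.14 (SE; edgeR, adjusted p = 1.66e-06). The other arm, miR-126a-5p, stood at 0.30 ± 0.16 (SE, edgeR, adjusted p = 0.0926). With library totals alone miR-126a-5p was called lower at -0.50 (edgeR, adjusted p = 0.00058), and miR-126a-3p stood at 0.09 and did not pass.

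The opposite arm of the miR-486a hairpin was nearly absent. miR-486a-3p had 11 counts over the 5 libraries of 1 week and 3 counts over the 20 adult libraries, and was not tested. miR-486b-3p was not analysed here.

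Among the 20 adult mice, where age made no detectable difference, miR-144 and miR-451a varied together from mouse to mouse. This was not particular to them: over all 25 libraries some miRNAs outside the members followed miR-451a more closely than miR-144-3p did, as given below. After taking out the mean of each age, miR-451a and miR-144-3p correlated at r = 0.61 (Pearson, permutation within age, adjusted p = 0.0224 over 10 relations) and rho = 0.69 (Spearman, adjusted p = 0.00427), and r was 0.63 without the 2 libraries farthest in miR-451a. miR-451a and miR-144-5p correlated at r = 0.69 (permutation, adjusted p = 0.01) and rho = 0.71 (adjusted p = 0.00427), and r stayed 0.69 without the 2 farthest. The arms of miR-144 correlated at r = 0.65 (permutation, adjusted p = 0.01) and rho = 0.71 (adjusted p = 0.00427). Their r was 0.67 without the 2 farthest in miR-144-3p, which kept mouse 6 with its 1 count of miR-144-5p. With log2 library total taken out too, their r was 0.60 (permutation, adjusted p = 0.00861) and rho 0.47 (permutation, adjusted p = 0.0745). These 2 values were adjusted over the pairs of members alone. Without taking out the age means the 3 values of r were 0.53, 0.66 and 0.63, with permutation adjusted p of 0.0540, 0.0115 and 0.0121 (unadjusted p of 0.0162, 0.00115 and 0.00241). On that scale the r of the miR-144 arms fell to 0.41 without the 2 libraries farthest in miR-144-3p.

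miR-486a-5p did not vary detectably with them. Its r with miR-451a was 0.40 on deviations from the age mean (permutation, adjusted p = 0.257; rho = 0.38, adjusted p = 0.237), and 0.18 without the 2 libraries farthest in miR-451a. With miR-144-3p r was 0.15 and with miR-144-5p 0.29 (permutation, adjusted p of 0.556 and 0.412; rho of 0.22 and 0.35). Neither was a relation with sequencing depth found: r of the log2 library total with the 4 members, on the same deviations, ran from -0.07 to 0.38 (permutation, adjusted p of 0.257 to 0.755). With library totals alone, and without taking out age means, miR-451a and miR-486a-5p correlated at r = 0.59 (permutation, adjusted p = 0.0169), which fell to 0.27 without the 2 farthest.

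**Figure D5:**
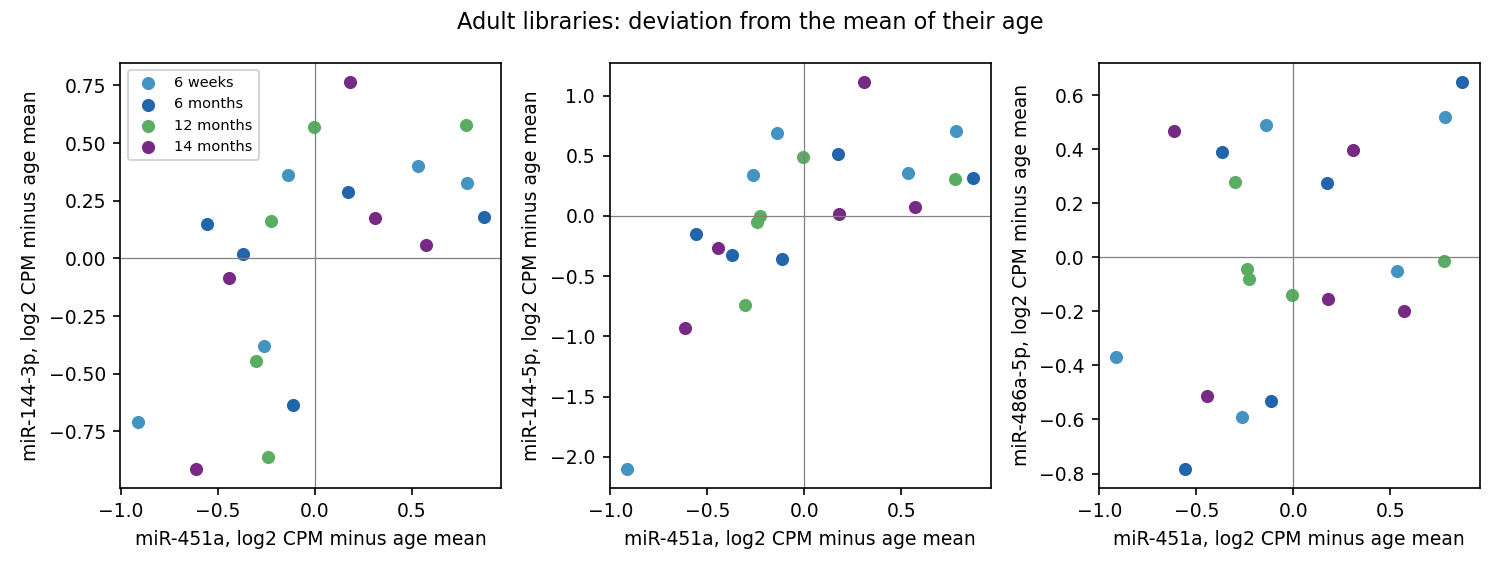
Deviation of log2 CPM from the mean of the age in the 20 adult libraries, with miR-451a on the x axis and miR-144-3p, miR-144-5p or miR-486a-5p on the y axis; each point is 1 mouse, coloured by age. The points rise from left to right for miR-144-3p (r = 0.61) and miR-144-5p (r = 0.69) and are more scattered for miR-486a-5p (r = 0.40).

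Outside the members, 139 named miRNAs with a mean of at least 50 CPM were ranked by how closely they followed each member over the 25 libraries, as deviations from the age mean. For miR-451a the closest were miR-27b-3p (r = 0.74), miR-27a-3p (r = 0.74) and miR-350-3p (r = 0.73), beside 0.75 for miR-144-5p, 0.66 for miR-144-3p and 0.13 for miR-486a-5p. For miR-144-3p they were miR-101c (r = 0.67), miR-340-5p (r = 0.63) and miR-190a-5p (r = 0.60). For miR-486a-5p the highest values were lower, with miR-200a-3p, miR-134-5p and miR-140-3p at r of 0.48, 0.48 and 0.47. These libraries share their scaling and depth, so the values are a description.

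Over the 5 age means alone, the patterns most like miR-451a were those of miR-125b-5p (r = 0.90), miR-92a-3p (r = 0.85) and miR-31-5p (r = 0.78). The most like miR-144-3p were miR-300-3p, miR-136-3p and miR-322-5p, at r of 0.998, 0.998 and 0.997. The most like miR-486a-5p were miR-1981-5p, miR-322-5p and miR-382-5p (r of 0.994, 0.993 and 0.991). With 5 points an r is a description, and the 1-week mean stands apart from the adult means in miR-144-3p and miR-486a-5p.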

How the data were processed

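Per the labels, total RNA of liver sEVs from 25 mice was sequenced as paired-end miRNA libraries. The authors deposited whole-number counts per miRNA entry; the submitters' processing notes name Bowtie, edgeR and mm10. Versions, and whether 1 count is a read or a unique molecule, are not given in the sources used here, so floors cover counting error only. Entries were tested in R 4.3.3 with edgeR 4.0.16 (TMM scaling, filterByExpr by age, quasi-likelihood tests, age as the only term, all 25 libraries in 1 fit), with Benjamini-Hochberg adjustment over the 391 entries kept of 1493 in each contrast and a threshold of 0.05. The mice are separate animals, so p-values measure the spread between mice. Ratios (0.5 added to each count) and shares were compared by exact two-sided permutation tests, enumerated with numpy 2.4.6. They were adjusted over 42 tests with scipy 1.17.1. Correlations of log2 CPM (prior count 2) were tested by 100000 permutations, adjusted over 10 relations. Where library total was taken out too, the adjustment was over the pairs of members alone. Fits were tested on simulated data. Other scalings, no filter, DESeq2 1.42.0, a depth covariate, fits of only the 2 ages compared, deduplicated entries and leaving out each mouse were tried. All members were named in every library; from each other list, values are given for up to 4 entries of highest mean CPM, and the 3 miRNAs most alike for 3 members. The members and lists were chosen with earlier results of these data known. Sequences are from RefSeq and places from GENCODE M21.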

Additional observations from a re-analysis of the deposited data

Results flagged for a closer look

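In 55 sets of 5 libraries (a member, ratio or share at 1 age), 4 had a highest or lowest mouse far from the other 4; chance flags about 1 in 20 sets. At 12 months miR-451a was 304 CPM in mouse 18, the other mice being at 143 to 176 CPM. At 6 weeks miR-144-5p was 1.40 CPM in mouse 6, which is 1 count in one of the shallowest libraries, the others being at 11.4 to 15.1 CPM. At 12 months miR-486a-5p was 24.7 CPM in mouse 16, the others being at 18.3 to 20.0 CPM. At 12 months the log2 ratio of miR-144-3p to miR-144-5p was 2.01 in mouse 19, the others being at 2.89 to 3.10.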

How the results depend on the processing

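The log2 fold changes of miR-486a-5p, miR-144-3p and miR-144-5p in adults against 1 week stayed negative and called under all 34 alternatives, from -3.07 to -2.05, -2.65 to -1.62 and -2.67 to -1.56. miR-451a stayed negative under the same 34 and uncalled under 28 of them. It was called with DESeq2 size factors (-0.95), library totals alone (-1.25), no filter on low counts (-0.77), DESeq2's Wald test (-0.95) and without mice 4 and 27 (-0.89, chosen after seeing the data); the cause was not tested. Leaving out each mouse in turn moved it from -0.66 to -0.23, called without mouse 27. The log2 ratio of miR-451a to miR-16-5p ran from -1.04 to 0.03 over the same omissions and was called without mouse 27. No paired analysis was possible because no mouse number occurs at more than 1 age. Depth limits miR-144-5p most, at 1 to 39 counts in adult libraries.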
